A study of Mus musculus with 4 samples.

Results

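The 10 CC chemokine genes described here, Ccl17, Ccl22, Ccl1, Ccl8, Ccl2, Ccl7, Ccl11, Ccl24, Ccl20 and Ccl27a, were listed by name as chemokines of allergic skin, with earlier results of these data known, so their counts are a description and no independent evidence. All 10 were found among the 18193 genes of the array. Each was read, among probe sets that carry its symbol alone, from the one with the highest mean of all 4 arrays. The 3′ expression arrays held RNA of treated skin from female wild-type BALB/c mice, 2 arrays for the vehicle ethanol (Control) and 2 for calcipotriol (MC903), an analogue of vitamin D that makes mouse skin inflamed. Both groups had been sensitised through the ear skin with ovalbumin together with MC903 and then challenged with ovalbumin by mouth, so the Control animals had also met MC903 before. The compared treatment was applied after the first oral challenge, and skin was taken after the later one. The question put to these genes was whether renewed MC903 on the skin was accompanied by other levels of chemokine transcripts.

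CC chemokines are small secreted proteins, named for a pair of adjacent cysteines, that bind to surfaces and draw leukocytes along a gradient through receptors coupled to G proteins. Each receptor marks certain cells, so the set of ligands made in a tissue bears on which leukocytes enter it. In allergic skin, the best known are the CCR4 ligands that attract type 2 helper T cells, the eotaxins that attract eosinophils through CCR3, the monocyte chemoattractants that act on CCR2, and CCL27, which keratinocytes make and which attracts skin-homing T cells through CCR10. In a piece of whole skin, more cells of a type and more RNA per cell cannot be told apart.

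Signals were scaled by the authors so that each array, trimmed by 2% at either end, had a mean of 500. The 3 TrpnX controls, which target a bacterial transcript, stood between 1.55 and 24.0 and serve as a guide to background. The 6 keratinocyte markers lay between 11798 and 45067 on every array, and 5 were higher on both MC903 arrays, against 21.6% of all genes. Krt1 differed most, with signals of 11798 and 13797 in Control and of 31840 and 30964 in MC903. Its adjusted p by limma was 0.156, or 0.0236 with a prior that follows the signal. Perp, Krt5, Krt10 and Krt14 differed by 0.09 to 0.28 in log2(signal + 16). The 6 fibroblast markers lay between 745.3 (Col1a1) and 35128 (Dcn). Of these, 4 were lower on both MC903 arrays, against 28.2% of all genes, Col1a1 by -0.70 in log2(signal + 16). Hair follicle keratins (Krt31, Krt33b, Krt34, Krt71 and Krt25) stood apart, with all 5 lower in both MC903 arrays, against 28.2% of all genes. Skeletal muscle markers summed to 29279 and 15402 in Control and to 7376 and 24836 in MC903. Nothing in the labels says that the arrays hold separate animals, so the p-values rest on a spread among samples that could be purely technical.

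Of the 10 chemokines, 7 were higher on both MC903 arrays than on both Control arrays (Ccl17, Ccl22, Ccl1, Ccl8, Ccl2, Ccl7 and Ccl20), against 21.6% of all genes. None was lower on both, against 28.2% of all genes, and the groups overlapped for Ccl11, Ccl24 and Ccl27a. With Ccl27a read instead from a brighter probe set that 5 genes share, the count higher on both was 8. The median difference of the 10, MC903 minus Control in log2(signal + 16), was 1.12, while that of all genes was -0.04. Only Ccl17 was at least 2-fold higher in every pairing of an MC903 with a Control array, 1 of 10 against 1.16% of all genes. That count was 3 without Control replicate 1, 2 without MC903 replicate 1 and 5 without MC903 replicate 2. Leaving out an array leaves fewer pairings to meet, and the share of all genes was not computed for these runs. After Benjamini-Hochberg adjustment over all genes, limma called 0 of the 10 and 0% of all genes. Without adjustment 7 of the 10 had a p below 0.05, all higher in MC903, against 6.82% of all genes higher and 8.39% lower. With a prior variance that follows the signal, limma called 0 of the 10 and 0.539% of all genes as higher and 0.385% as lower, and the smallest adjusted p among the 10 was 0.0738, for Ccl8. Without MC903 replicate 1 the median difference of the 10 was 0.80, and without MC903 replicate 2 it was 1.30. With 2 arrays a side, 0.333 is the smallest two-sided p that exact permutation allows.

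**Figure D1:**
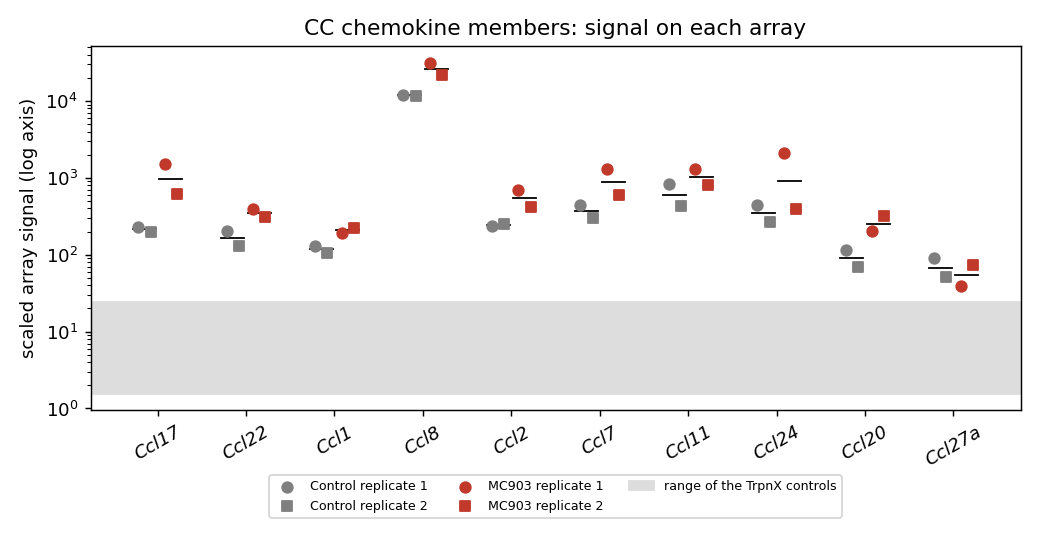
Scaled array signal (log axis) of the 10 CC chemokines on each array, with grey for Control and red for MC903, circles for replicate 1 and squares for replicate 2; black bars are geometric means of a group's 2 arrays and the grey band is the range of the TrpnX bacterial controls. All members lie above the band on every array, and Ccl17 has the widest gap between its groups.

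Ccl17 and Ccl22 encode the ligands of CCR4, a receptor of type 2 helper and regulatory T cells, and dendritic cells are a main source of both. Ccl17 had signals of 230.2 and 200.5 in Control and of 1509 and 610.2 in MC903. Both MC903 signals lay well above both Control signals, but they differed from each other by more than the Control signals did. The difference was 2.08 ± 0.47 (SE, n = 2 per group; 95% interval 0.82 to 3.34), or 4.23-fold on this scale, and the pairings of single arrays gave 1.35 to 2.82 (limma, adjusted p = 0.218). Ccl22 had signals of 202 and 131.1 in Control and of 393.9 and 308.9 in MC903. Its groups did not overlap either, and here the MC903 signals were the closer pair. The difference was 1.03 ± 0.27 (95% interval 0.30 to 1.75; limma, adjusted p = 0.249). Ccr4 itself went the other way, with signals of 95.8 and 67.2 in Control and of 66.6 and 41.2 in MC903, a difference of -0.49 ± 0.28 that limma did not call (adjusted p = 0.471) and that lay between -0.75 and -0.22 with 1 array left out. The higher MC903 signal of Ccr4 lay just under the lower Control signal.

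The genes Ccl22 and Ccl17 neighbour each other on mouse chromosome 8 with Cx3cl1, which encodes the membrane-bound chemokine fractalkine, between them. Cx3cl1 had signals of 167.4 and 174 in Control and of 106.1 and 163.3 in MC903, so the gene between the pair was not higher on either MC903 array. The starts of both CCR4 ligand genes are shown because their transcripts were both higher on both MC903 arrays, with 250 bases before and 50 after the annotated start (RefSeq, GRCm38.p6). The Ccl17 window is chr8:94810203-94810502 and the Ccl22 window chr8:94745434-94745733, both on the plus strand. Capitals mark a match to TTCNNNNGAA, a motif bound by STAT6, the transcription factor that IL-4 and IL-13 activate.
Ccl17: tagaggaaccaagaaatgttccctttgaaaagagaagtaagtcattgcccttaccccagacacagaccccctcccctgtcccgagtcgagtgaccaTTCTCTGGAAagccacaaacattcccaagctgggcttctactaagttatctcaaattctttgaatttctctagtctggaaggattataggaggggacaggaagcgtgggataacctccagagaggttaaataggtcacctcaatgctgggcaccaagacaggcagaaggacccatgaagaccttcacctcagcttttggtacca
Ccl22: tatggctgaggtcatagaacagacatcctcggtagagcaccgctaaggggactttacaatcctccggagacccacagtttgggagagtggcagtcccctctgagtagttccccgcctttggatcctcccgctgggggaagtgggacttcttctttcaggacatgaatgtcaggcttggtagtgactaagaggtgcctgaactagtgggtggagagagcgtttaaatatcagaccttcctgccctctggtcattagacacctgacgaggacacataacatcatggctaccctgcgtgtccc
Windows were matched by symbol for 6 of the 10 genes (Ccl1, Ccl8, Ccl17, Ccl20, Ccl22 and Ccl27a, the last with 3 windows). Among these windows, searched on both strands, TTCNNNNGAA was found in that of Ccl17 alone, at bases 97 to 106, and 6.95% of all 32851 windows of 300 bases in the table hold it. The vitamin D receptor motif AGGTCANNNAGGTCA was found in none of the 8 windows and in 2 of the 32851. No match says only that these letters are not in the window.

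Ccl1 and Ccl8 encode ligands of CCR8, a receptor of type 2 helper, regulatory and skin-resident T cells. Ccl1 had signals of 128.9 and 106.8 in Control and of 192.8 and 225.5 in MC903. The groups did not overlap, and MC903 replicate 2 was the higher of its pair. The difference was 0.75 ± 0.18 (95% interval 0.25 to 1.25; limma, adjusted p = 0.234). Ccl8 had signals of 12078 and 11705 in Control and of 31688 and 21990 in MC903. The Control signals were close together, and both MC903 signals stood far from them. The difference was 1.15 ± 0.23, or 2.22-fold (95% interval 0.52 to 1.78; limma, adjusted p = 0.202), the smallest adjusted p of the 10. Of their receptor Ccr8, the Control signals of 2.37 and 1.90 were as low as the TrpnX controls, while those of MC903, 26.4 and 41.2, lay above them. Ccr8 differed by 1.44 ± 0.21 (limma, adjusted p = 0.159), a size that depends on the constant of 16.

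Of 7 measured T cell markers, 6 were higher on both MC903 arrays, against 21.6% of all genes, and the groups of Cd8a overlapped. The summed signals of the 7 were 751.5 and 850.5 in Control and 1665 and 1540 in MC903. Foxp3, the defining factor of regulatory T cells, had signals of 45.9 and 31.7 in Control and of 101.6 and 78.1 in MC903. No measured marker of the list lay within the TrpnX range on all arrays. The part of T cell numbers in the chemokine differences was not tested.

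Ccl2 and Ccl7 encode monocyte chemoattractant proteins that act on CCR2 and bring monocytes out of the blood. Ccl2 had signals of 238.2 and 251.8 in Control and of 700.0 and 418.9 in MC903. The Control signals were nearly equal, and the lower MC903 signal was still above both. The difference was 1.10 ± 0.29 (95% interval 0.32 to 1.87; limma, adjusted p = 0.249). Ccl7 had signals of 439.8 and 303.8 in Control and of 1289 and 591.4 in MC903. Its groups did not overlap, and MC903 replicate 1 stood apart from the other arrays. The difference was 1.22 ± 0.44 (95% interval 0.04 to 2.41; limma, adjusted p = 0.32). Ccr2 had signals of 645.7 and 723.7 in Control and of 1940 and 1278 in MC903, a difference of 1.19 ± 0.26 (limma, adjusted p = 0.212, or 0.0931 with a prior that follows the signal). Its other 3 probe sets differed by 1.06, 0.36 and 0.47, the last 2 with overlapping groups, and the mean over all 4 differed by 0.77. Across the 4 arrays, on its brightest probe set, Ccr2 and Ccl2 ran closest together, with a root mean square distance of 0.07 between their deviations in log2(signal + 16) from each gene's mean, and Ccr2 was also the gene nearest to Ccl8, at 0.08, among the 30 other ligands and receptors.

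Macrophage and monocyte markers were higher on both MC903 arrays for 7 of 7 genes, against 21.6% of all genes. Their summed signals were 12207 and 10735 in Control and 38860 and 16054 in MC903. By limma, 1 of the 7 had an unadjusted p below 0.05, against 6.82% of all genes higher. None of the 7 lay within the TrpnX range on all arrays. Their median difference from the Control mean was 2.06 on MC903 replicate 1 and 0.45 on replicate 2, while Ccl2 gave 1.46 and 0.74 and Ccl7 gave 1.77 and 0.67. Neutrophil markers were higher on both MC903 arrays for 3 of 3 genes measured, against 21.6% of all genes, with medians of 2.47 and 0.87. Their summed signals were 220.9 and 183.4 in Control and 1235 and 391.1 in MC903. The part of macrophage, monocyte and neutrophil RNA in the differences of Ccl2, Ccl7 and Ccl8 was not tested. Ccl2, Ccl7, Ccl11, Ccl12, Ccl8 and Ccl1 follow one another in this order on mouse chromosome 11. Ccl12, the non-member among them and another CCR2 ligand, had signals of 227.9 and 505.3 in Control and of 931.4 and 568.2 in MC903. All 6 neighbours had mean differences above 0, from 0.75 to 1.22, as had 8323 of all 18193 genes, and the groups of Ccl11 overlapped. The mean difference of Ccl12, 1.06, was 0.51 without Control replicate 1 and 1.61 without Control replicate 2.

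**Figure D2:**
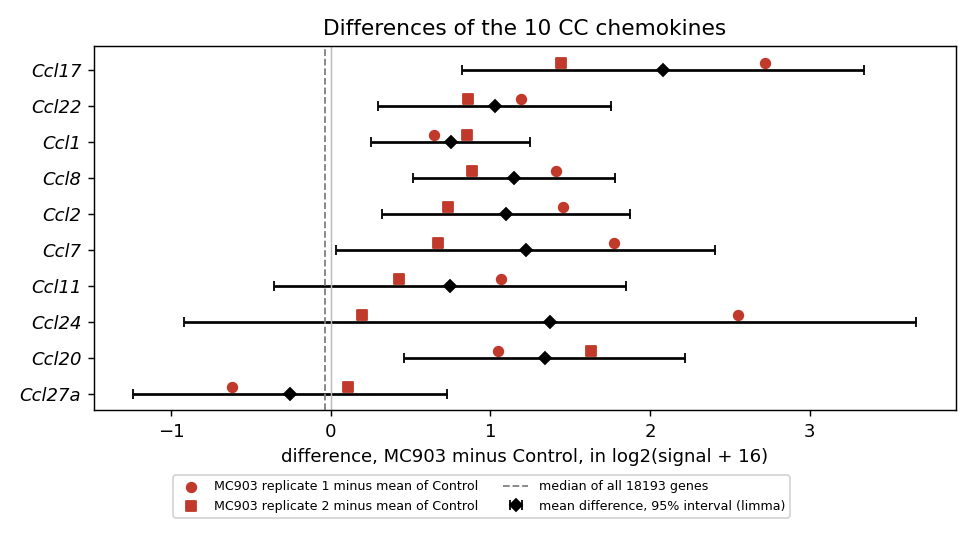
Difference between MC903 and Control in log2(signal + 16) for each of the 10 chemokines. Diamonds and bars are limma's mean difference and its 95% interval, red circles and squares each MC903 array minus the mean of both Control arrays, and the dashed line the median of all 18193 genes (-0.04). The intervals of Ccl11, Ccl24 and Ccl27a include 0.

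Ccl11 and Ccl24 encode eotaxins, which attract eosinophils through CCR3. Ccl11 had signals of 838.2 and 436.7 in Control and of 1286 and 819.4 in MC903. The lower MC903 signal lay just under the higher Control signal, so the groups overlapped. The difference was 0.75 ± 0.41 (95% interval -0.36 to 1.85; limma, adjusted p = 0.461), and it became 0.29 without Control replicate 2, 0.43 without MC903 replicate 1 and 1.20 without Control replicate 1. Ccl24 had signals of 447.3 and 266.9 in Control and of 2108 and 399.1 in MC903. One MC903 array was far above all others and the other lay between the Control signals. The difference of 1.37 ± 0.85 (95% interval -0.92 to 3.67; limma, adjusted p = 0.503) became 0.20 without MC903 replicate 1 and 2.55 without MC903 replicate 2. Its nearest pattern among ligands and receptors was that of Ccl6 (root mean square distance 0.23), a chemokine of myeloid cells.

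The eosinophil side of this axis was dim. Ccr3 had signals of 3.11 and 22.2 in Control and of 44.9 and 15.6 in MC903, so that 3 of 4 signals lay within the TrpnX range, and its difference of 0.70 was 0.20 to 1.20 with 1 array left out. Of the 5 eosinophil markers measured, 2 were higher and 1 was lower on both MC903 arrays, against 21.6% and 28.2% of all genes. The summed signals of the 5 were 104.2 and 103.3 in Control and 146.7 and 117.4 in MC903. Prg3 and Il5ra lay below the highest TrpnX signal on every array. Mast cell and basophil markers were higher on both MC903 arrays for 3 of 7 genes, against 21.6% of all genes. They summed to 8493 and 7445 in Control and 13767 and 8593 in MC903. The basophil protease gene Mcpt8 had Control signals of 4.67 and 4.21, within the TrpnX range, and MC903 signals of 2972 and 256.7.

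Ccl20 encodes the ligand of CCR6, a receptor of interleukin-17-producing T cells and of immature dendritic cells, and epithelial cells make it when inflamed. Ccl20 had signals of 116.8 and 70.2 in Control and of 205.3 and 315.4 in MC903. The groups did not overlap, and as for Ccl1 the higher signal was on MC903 replicate 2. The difference was 1.34 ± 0.33, or 2.53-fold (95% interval 0.46 to 2.22; limma, adjusted p = 0.233). Ccr6 had signals of 202.8 and 188.1 in Control and of 270.4 and 282.8 in MC903, a difference of 0.47 ± 0.16 (limma, adjusted p = 0.298). Il17a, the cytokine gene of that T cell class, had signals of 54.6 and 19.8 in Control and of 44.8 and 39.6 in MC903, with overlapping groups. The start of Ccl20 is shown (chr1:83116516-83116815, plus strand, RefSeq, GRCm38.p6) because, of the 8 windows searched, it alone holds a match to GGGNNTTTCC, a motif bound by NF-kB, which inflammatory signals activate. Capitals mark the match, which reads on the reverse strand.
Ccl20: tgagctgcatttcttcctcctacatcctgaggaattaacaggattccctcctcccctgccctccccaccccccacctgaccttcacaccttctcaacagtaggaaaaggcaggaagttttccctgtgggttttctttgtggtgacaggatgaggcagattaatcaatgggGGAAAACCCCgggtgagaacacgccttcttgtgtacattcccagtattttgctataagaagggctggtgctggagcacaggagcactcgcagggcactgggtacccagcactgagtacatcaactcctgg
The match covers bases 171 to 180 of the window and overlaps no other motif searched, and 1.63% of all 32851 windows hold one on either strand.

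Ccl27a encodes the keratinocyte chemokine CCL27 that binds CCR10. The probe set with its symbol alone was dim, with signals of 89.5 and 50.9 in Control and of 38.8 and 74.5 in MC903. The groups overlapped, and the name of the probe set marks possible cross-hybridisation. The difference was -0.25 ± 0.36 (95% interval -1.24 to 0.73; limma, adjusted p = 0.773), and it became 0.07 without Control replicate 1 and 0.11 without MC903 replicate 1. A brighter probe set, annotated to 5 genes of which Ccl27a is one, had signals of 3547 and 2597 in Control and of 3987 and 4705 in MC903. These groups did not overlap, and the difference was 0.51. A further probe set with the same 5 symbols had signals of 45.8 and 71.9 in Control and of 27.8 and 69.1 in MC903. Which gene each of these reports cannot be told from the annotation, so the direction of Ccl27a depends on the probe set. Ccr10 had signals of 61.5 and 29.7 in Control and of 37.0 and 8.98 in MC903, with overlapping groups and a difference of -0.71 that was -1.25 to -0.17 with 1 array left out.

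In all, 13 CC receptors and decoys were described, those above included. Of these, 8 were higher on both MC903 arrays, against 21.6% of all genes, and 3 were lower, against 28.2%. The median difference was 0.54, and limma called 0 after adjustment, 5 having an unadjusted p below 0.05, all higher, against 6.82% of all genes. Ccr1, a receptor of monocytes and neutrophils, had signals of 201 and 235.2 in Control and of 1891 and 412.5 in MC903 (1.95 ± 0.75; limma, adjusted p = 0.34). The difference was 0.88 without MC903 replicate 1 and 3.03 without MC903 replicate 2, and on its other probe set, with signals of 45.3 and 27.3 in Control and of 267 and 42.2 in MC903, the groups overlapped. Ccr7, which guides dendritic cells to lymph nodes, had signals of 38.5 and 7.77 in Control and of 156.7 and 72.3 in MC903 (1.78 ± 0.54; limma, adjusted p = 0.279), the lower Control signal being within the TrpnX range and the difference being 1.18 without Control replicate 2. Ccrl2, which binds chemerin, differed by 0.61 ± 0.27 (0.32 without Control replicate 2). Ccr9, a receptor of gut-homing T cells, differed by 0.54 ± 0.17 on a probe set whose name, as for Ccl27a, marks possible cross-hybridisation. Its other probe sets differed by 0.78, 0.22, 0.57 and 0.19. The groups overlapped on that of 0.22, and signals lay mostly within the TrpnX range on those of 0.57 and 0.19.

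Atypical receptors take up chemokines without signalling to migration. Ackr2, a scavenger of inflammatory CC chemokines on lymphatic endothelium, had signals of 945.3 and 1012 in Control and of 750.0 and 731.0 in MC903. Both MC903 signals were lower, by -0.39 ± 0.15 (limma, adjusted p = 0.344), and its other 2 probe sets differed by -0.77 and -0.07. Ackr1, which carries chemokines across venular endothelium, had signals of 560.4 and 538.1 in Control and of 647 and 615.5 in MC903, a difference of 0.20 ± 0.15 (limma, adjusted p = 0.589).

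**Figure D3:**
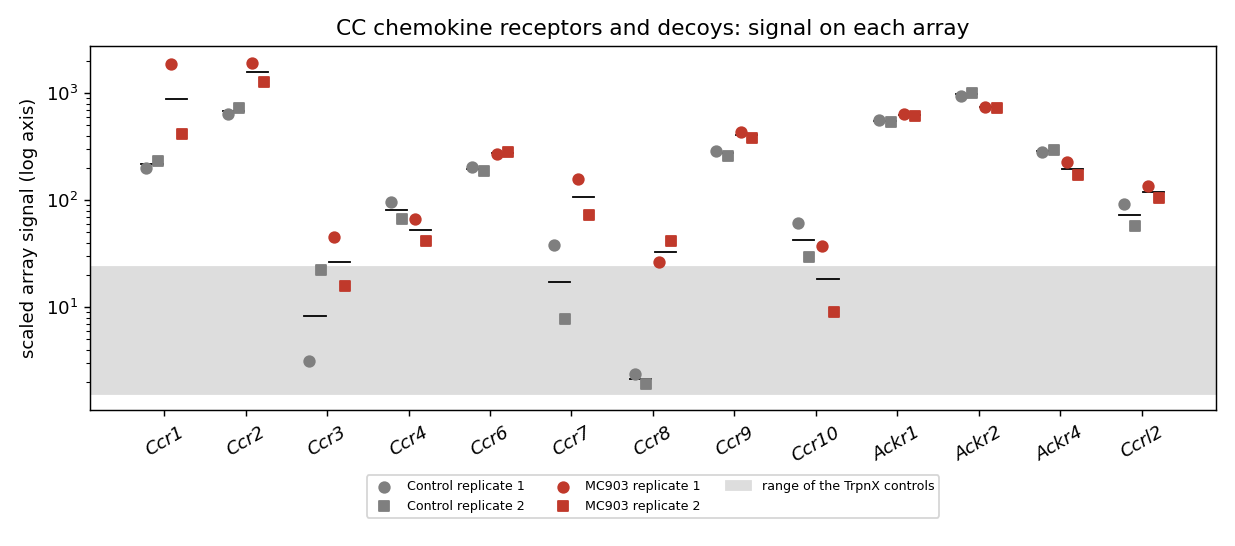
Scaled array signal (log axis) of 13 CC chemokine receptors and decoys on each array, with colours, shapes, bars and band as for the ligands. The Control signals of Ccr8 (2.37 and 1.90) lie within the band of the TrpnX controls, and Ccr4, Ackr2 and Ackr4 are lower on both MC903 arrays.

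Of 10 other CC chemokines listed, 8 were measured on a probe set of their own. Of these, 6 were higher on both MC903 arrays, against 21.6% of all genes, and 1 was lower, against 28.2%, with a median difference of 1.62 that was 0.73 without MC903 replicate 1, and limma called 0 after adjustment (1, Ccl5, had an unadjusted p below 0.05, against 6.82% of all genes higher). Ccl3, a ligand of CCR1, had signals of 23.2 and 40.6 in Control and of 1514 and 75.7 in MC903, so its difference of 2.99 ± 1.40 became 0.96 without MC903 replicate 1. Ccl9, a ligand of CCR1, had signals of 1352 and 647.9 in Control and of 10279 and 2117 in MC903 (2.30 ± 0.86, or 1.16 without MC903 replicate 1). Ccl6, another CCR1 ligand, differed by 1.68 ± 0.71, or by 0.75 without MC903 replicate 1. Ccl5, made by activated T cells among others, had signals of 36.8 and 80.1 in Control and of 244.5 and 232.3 in MC903 (1.84 ± 0.33; limma, adjusted p = 0.189). Its MC903 signals were nearly equal, unlike those of Ccl3, Ccl6 and Ccl9.

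The genes upstream of these chemokines were set beside them. Il4, whose protein induces the CCR4 ligands and the eotaxins through STAT6, had signals of 33.5 and 42.2 in Control and of 363.7 and 41.1 in MC903, so it stood out on MC903 replicate 1 alone. Il13 had signals of 9.14 and 3.11 in Control and of 32.9 and 16.5 in MC903, with 3 of 4 signals within the TrpnX range. Il4ra, which encodes the receptor chain shared by both cytokines, had signals of 188.7 and 187.1 in Control and of 1008 and 379.2 in MC903 (1.64 ± 0.49, or 0.95 without MC903 replicate 1; limma, adjusted p = 0.273). Stat6 differed by 0.25 ± 0.16 and Vdr, the vitamin D receptor gene, by -0.21 ± 0.18.

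Tslp, the epithelial cytokine that makes dendritic cells produce CCL17, had signals of 253 and 208.6 in Control and of 777.3 and 6313 in MC903 (3.19 ± 1.03, or 1.69 without MC903 replicate 2 and 4.69 without MC903 replicate 1; limma, adjusted p = 0.294). Il1b, an inducer of Ccl20 and Ccl2, had signals of 151.2 and 170.9 in Control and of 2898 and 591.5 in MC903 (2.91 ± 0.79, or 1.78 without MC903 replicate 1; limma, adjusted p = 0.253). Tnf had overlapping groups, at 93.2 and 61.3 in Control and 39.9 and 136.6 in MC903. Ifng overlapped as well and had 2 signals, 2.72 and 9.01, within the TrpnX range.

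The 2 MC903 arrays ordered the chemokines differently. Replicate 1 was above replicate 2 for 7 of the 10 (Ccl17, Ccl22, Ccl8, Ccl2, Ccl7, Ccl11 and Ccl24), against 48.1% of all genes, while Ccl1, Ccl20 and Ccl27a were higher on replicate 2. In log2(signal + 16) the gap ran from 2.36 higher on replicate 1 for Ccl24 to a value of -0.72 for Ccl27a. Il1b and Il4 had gaps of 2.26 and 2.73 in the direction of Ccl24, and Tslp one of -3.00 in the direction of Ccl20 and Ccl1. Ccl17, named above beside Tslp, had a gap of 1.28, opposite in sign to that of Tslp. Of the genes named beside Il1b, Ccl20 had a gap of -0.58, opposite in sign, and Ccl2 one of 0.72, of the same sign. Dendritic and Langerhans cell markers had medians of 0.31 on replicate 1 and 0.81 on replicate 2. Of the 7 genes, 5 were higher on both MC903 arrays, against 21.6% of all genes, Xcr1 by only 0.002 in its lowest pairing. Their summed signals were 2606 and 3030 in Control and 4204 and 3968 in MC903. Replicate 1 was above replicate 2 for 3 of these 7, against 48.1% of all genes. The same held for 7 of 7 macrophage and monocyte, 3 of 3 neutrophil and 6 of 7 mast cell and basophil markers. It held for 5 of 7 T cell and 2 of 5 eosinophil markers. With 1 array for each side of the contrast between the MC903 arrays there is no test of it, and its cause was not tested.

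**Figure D4:**
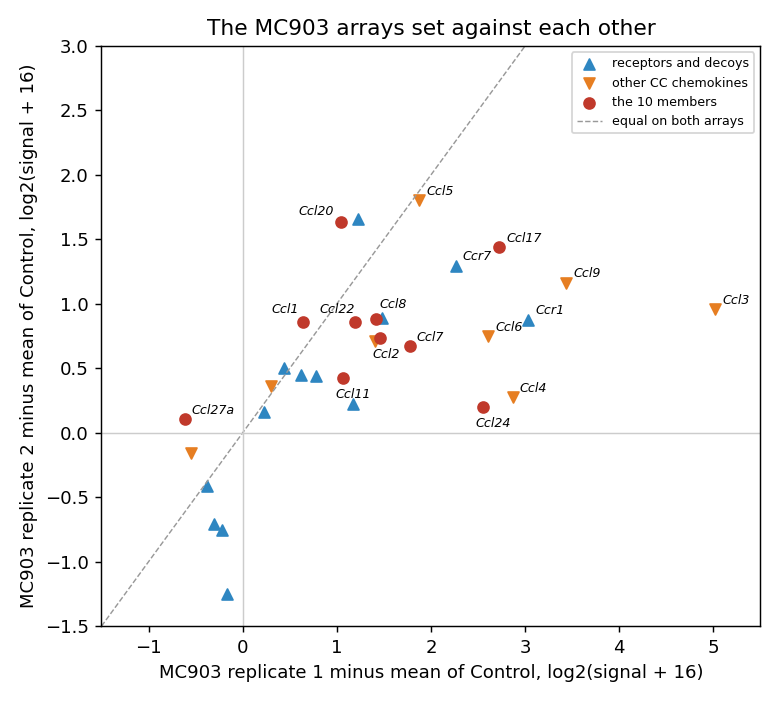
MC903 replicate 1 (x axis) and MC903 replicate 2 (y axis), each minus the mean of both Control arrays in log2(signal + 16), for the 10 members (red circles), the receptors and decoys (blue triangles) and the other CC chemokines (orange triangles), with a dashed line where both arrays are equal. Ccl24, at 2.55 and 0.20, lies far below the line, and Ccl20, at 1.05 and 1.63, above it.

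Over the whole table, the 3 genes whose deviations across the 4 arrays lay nearest to those of Ccl17 were Pdcd1lg2, which encodes the checkpoint ligand PD-L2 of dendritic cells and macrophages, Adam8, a leukocyte metalloprotease gene, and Tnfrsf9, which encodes the costimulatory receptor 4-1BB. Their root mean square distances were 0.06, 0.11 and 0.14. Pdcd1lg2 had signals of 81.2 and 69.1 in Control and of 547.1 and 244.1 in MC903. With 4 arrays and 18192 genes searched, near patterns are a description only.

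**Figure D5:**
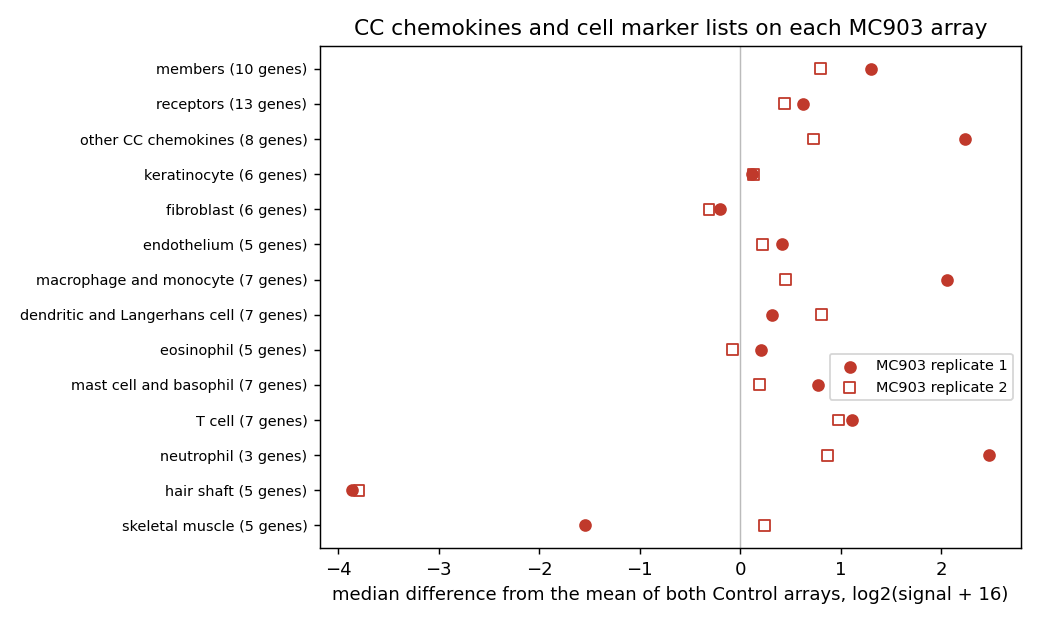
Median difference from the mean of both Control arrays in log2(signal + 16) on MC903 replicate 1 (filled circles) and replicate 2 (open squares), for the 10 members, their receptors, other CC chemokines and 11 lists of cell markers, with the number of genes measured in each. The members stand at 1.30 and 0.80, T cell markers at 1.11 and 0.97, and macrophage and monocyte markers at 2.06 and 0.45. The list labelled hair shaft holds the hair follicle keratins named in the text.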

How the data were processed

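The deposited table holds array intensity values, that is, linear scaled signals of 45101 probe sets on 4 arrays, made from 200 ng of total RNA each, per the labels' protocols. Their summary software is not given in sources used here, and they carry no detection calls. Symbols came from the platform annotation, updated by Entrez ID to RefSeq (34945 probe sets with 1 symbol, 932 with several, 9160 unnamed and 64 controls). Each gene took its probe set with the highest mean log2(signal + 16). The comparison used lmFit and eBayes of limma 3.58.1 (R 4.3.3; constant prior variance, 2 residual and 2.32 prior degrees of freedom), with Benjamini-Hochberg adjustment over 18193 genes at a threshold of 0.05 and no further normalization or filter. The fit was tested on simulated data. Differences on the log2(signal + 16) scale understate those of dim genes; the small number of arrays limits precision. Named were the 10 members, receptors of the members, the decoys Ackr1 and Ackr2, up to 4 each of the other receptors and chemokines with the largest differences among those without overlap, 10 upstream genes and nearest patterns. Cx3cl1 was added for its position. The members and lists were chosen with earlier results of these data known. Settings varied were the added constant, normalization, filters, the probe set rule, the prior, a replicate block and leaving out arrays.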

Additional observations from a re-analysis of the deposited data

Results flagged for a closer look

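Probe sets that several genes share were left out of the comparison, and 2 of those that include a listed chemokine were higher on both MC903 arrays than on both Control arrays. The bright one of 5 genes including Ccl27a differed by 0.51 in log2(signal + 16), with signals of 3547 and 2597 in Control and of 3987 and 4705 in MC903. The one of 10 genes including Ccl19 differed by 1.42, with signals of 271.9 and 226.8 in Control and of 825.2 and 576.8 in MC903. Fitted among all probe sets, limma called neither (adjusted p = 0.479 and 0.291).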

How the results depend on the processing

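Of the 10 chemokines, 9 kept a mean difference above 0 under every alternative run in which they were measured. Ccl27a ranged from -0.62 to 0.11 with 1 array left out, and reversed from -0.25 to 0.07 without Control replicate 1, to 0.11 without MC903 replicate 1, and to 0.51 on the shared probe set. The count of members higher without overlap was 4 instead of 7 without the dimmest 50% of genes, and that of receptors 4 instead of 8, because fewer were tested. With 1 array left out, and so fewer pairings to meet, the members at least 2-fold higher in every pairing numbered 1 to 5. The median of the other CC chemokines ranged from 0.73 to 2.24 with 1 array left out, and was 0.73 on MC903 replicate 2 alone.

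Over all genes limma called 0, but 70 with an added constant of 64, 3 after centring on array medians, 36 and 190 without the dimmest 25% and 50%, 12 with probe sets averaged, 168 with a prior that follows the signal and 5 with probe sets chosen by linear mean signal. With 1 array left out it called 0 with the constant prior; with the signal-following one it called 15 and 5 genes without Control replicate 1 and 2 and 227 and 946 without MC903 replicate 1 and 2, and 0 to 5 members; the cause was not tested. Probe sets chosen by linear mean, the shared probe set, single MC903 arrays and the signal-following prior with an array left out were added after seeing the data. The replicate numbers share no stated source and did not vary together (r = -0.06 across genes, which are not independent replicates); with a replicate block limma called 0 genes and 0 members. Leaving out an array takes the spread of the intact pair for the single array too. Signals within the TrpnX range, such as those of Ccr8 and Ccr3, limit what can be read of dim genes.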
